A study of Mus musculus with 3 samples.

Results

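The genes described here are 10 mouse genes of osteoclast differentiation and cell fusion, Dcstamp, Ocstamp, Acp5, Ctsk, Calcr, Oscar, Nfatc1, Atp6v0d2, Itgb3 and Tnfrsf11a. They were taken by symbol from a table of 54331 features, and all 10 were found once each. The choice was made because the libraries given different shRNAs against GIV differ in several of them, so the difference between those libraries is given as a description and was not tested. Of the 10, 7 averaged at least 10 normalized counts and entered the fit across 13877 features, while Calcr, Oscar and Itgb3 lay under that limit.

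Osteoclasts are large multinucleated cells that dissolve bone and arise by fusion of cells of the monocyte and macrophage lineage. The cytokine RANKL binds the receptor RANK on the precursor and, together with receptors that signal through ITAM adaptors, switches on the transcription factor NFATc1. NFATc1 in turn drives genes for fusion (DC-STAMP, OC-STAMP, the proton pump subunit d2), for attachment to bone (integrin beta 3) and for resorption (the phosphatase TRAP and cathepsin K). RAW 264.7 is a mouse macrophage line widely used as an osteoclast precursor, and exposure to LPS, the bacterial ligand of TLR4, changes how such precursors respond to RANKL.

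RNA was sequenced with a stranded mRNA kit from RAW 264.7 cells (strain background BALB/c, male) kept for 5 h with LPS at 100 ng/mL. A single control library came from cells labelled wild-type with a control shRNA, and 2 libraries came from cells labelled GIV-depleted, each with a different shRNA against GIV (Girdin, gene Ccdc88a). They are called the sh1-labelled and sh2-labelled libraries here. All 3 libraries received LPS, and no RANKL is named in the labels. The series title gives dampening of TLR4 signalling and of inflammatory responses by GIV as the question.

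Values are the authors' normalized counts, which add up to between 47349097 and 49756670 per library. Ccdc88a itself had 2580.4 normalized counts with the control shRNA, 1734 in the sh1-labelled library and 2561 in the sh2-labelled library. The sh2-labelled library was thus at the control's level, which runs counter to that label as far as mRNA goes. All 9 macrophage markers examined were found, with summed values of 452787, 347880 and 368537 in that order. Of these 9, 5 were lower than the control in both GIV-labelled libraries, 1 (Ptprc) was higher in both and 3 went opposite ways, and much of the fall in the sum was Lyz2, with 199781, 121997 and 138145. Among markers of other cell types, 4 of 5 epithelial, 3 of 6 lymphocyte and 3 of 6 neutrophil and mast cell markers were listed at 0 in every library. The neutrophil and mast cell markers summed to 69.3, 46.7 and 100.6 in the same order, of which S100a8 gave 68.8, 45.6 and 75.5 and Kit gave 0.55, 1.13 and 24.2. The 8 osteoblast and stromal markers summed to between 26.5 and 45.4. The 6 dendritic cell markers summed to between 1121 and 1270, with Flt3 and Siglech listed at 0 throughout.

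The 10 genes differed widely in level. Transcripts of the receptor RANK, the factor NFATc1, the fusion proteins and the resorption enzymes were present in LPS-treated cells, whereas Oscar, Itgb3 and Calcr were at or near 0. Among the 7 tested genes, Dcstamp, Acp5, Nfatc1 and Atp6v0d2 were higher than the control in the sh1-labelled library and lower in the sh2-labelled library. Ocstamp, Ctsk and Tnfrsf11a were lower than the control in both. The comparison over both GIV-labelled libraries passed for 0 of the 7 genes at an adjusted p of 0.05 in limma, as for 0% of all features tested. At an unadjusted p under 0.05 limma also called 0 of the 7, against 6.94% of all features, 963 in number. With 2 libraries against 1, the spread came from the GIV-labelled pair alone, and an exact two-sided permutation test of a single gene could not go below 0.33. The genes were chosen on the gap within that pair, and a wider gap gives a wider spread. Nothing is therefore read from either count of 0.

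**Figure D1:**
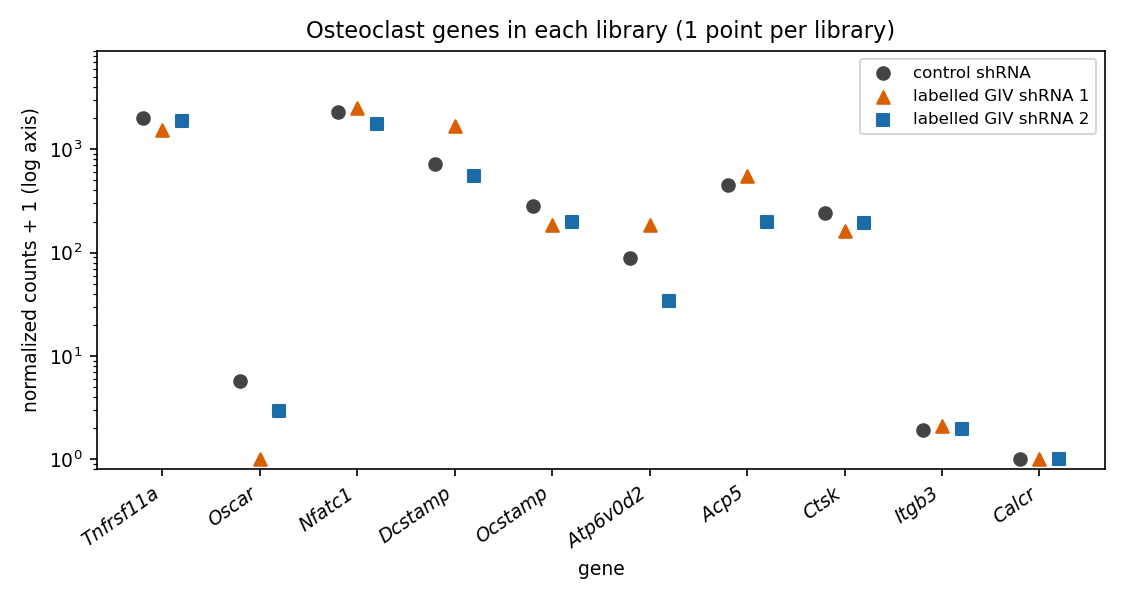
Normalized counts plus 1, on a log axis, of the 10 genes in each of the 3 libraries, with 1 point per library and no error bars. Dcstamp, Atp6v0d2 and Acp5 show the widest gaps between the 2 GIV-labelled libraries among the genes tested, and Itgb3 and Calcr lie at the floor.

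Tnfrsf11a encodes RANK, the receptor for RANKL (ENSMUSG00000026321.7, GRCm38 chromosome 1, 105780718 to 105847981, plus strand). It had 2031 normalized counts with the control shRNA, 1546 in the sh1-labelled library and 1889.8 in the sh2-labelled library. The control was the highest, and the sh2-labelled library lay closer to the control than to the sh1-labelled library. The log2 difference of both libraries from the control, on the log2(value + 1) scale used throughout, was -0.25 (SE 0.19, limma adjusted p = 0.82). The same order, highest in the control and lowest in the sh1-labelled library, was seen in Ocstamp, Ctsk and Ccdc88a. The ligand gene Tnfsf11 (RANKL) was listed at 0 in all 3 libraries, and the decoy receptor gene Tnfrsf11b was listed at 0 in 2 and at 1.93 in the sh2-labelled library.

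Oscar encodes the osteoclast-associated receptor, which signals through the adaptor FcR gamma (ENSMUSG00000054594.13, chromosome 7, 3609813 to 3616157, minus strand). It had 4.68 normalized counts with the control shRNA, was listed at 0 in the sh1-labelled library and had 1.92 in the sh2-labelled library. A single read is worth about 0.931 to 1.112 normalized counts, so these values stand for roughly 5, 0 and 2 reads, too few to order the libraries. Its adaptor gene Fcer1g was abundant, with 17463 normalized counts with the control shRNA, 17436 in the sh1-labelled library and 15399 in the sh2-labelled library.

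Nfatc1, the transcription factor that commits precursors to the osteoclast fate (ENSMUSG00000033016.16, chromosome 18, 80606205 to 80713071, minus strand), had 2302 normalized counts with the control shRNA. It had 2501 in the sh1-labelled library and 1741 in the sh2-labelled library. The control lay between the others, 0.12 below the first and 0.40 above the second on the log2 scale. The mean log2 difference was -0.14 (SE 0.26, limma adjusted p = 0.92).

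Dcstamp encodes DC-STAMP, a membrane protein required for fusion of osteoclast precursors and of macrophages into giant cells (ENSMUSG00000022303.9, chromosome 15, 39745930 to 39760938, plus strand). It had 718 normalized counts with the control shRNA, 1672 in the sh1-labelled library and 549.6 in the sh2-labelled library. The first of these was thus 2.33 times the control and the second 76.5% of it. The log2 differences were 1.22 and -0.39, with a mean of 0.42 (SE 0.71, limma adjusted p = 0.92). The sh1-labelled library stood apart, at 3.04 times the sh2-labelled library.

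Ocstamp encodes OC-STAMP, a second membrane protein needed for fusion (ENSMUSG00000027670.4, chromosome 2, 165393760 to 165400405, minus strand). It had 282 normalized counts with the control shRNA, 184 in the sh1-labelled library and 196 in the sh2-labelled library. Both GIV-labelled libraries lay below the control and close to each other. The mean log2 difference was -0.57 (SE 0.25). Its unadjusted p of 0.089 and adjusted p of 0.73 in limma were the lowest of the 7 genes. The ratio of the fusion pair varied between libraries: per kilobase of transcript, Dcstamp was 4.66 times Ocstamp in the control, 16.6 times in the sh1-labelled library and 5.13 times in the sh2-labelled library.

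Atp6v0d2 encodes the d2 subunit of the vacuolar proton pump, which is enriched in osteoclasts and takes part in fusion (ENSMUSG00000028238.6, chromosome 4, 19876841 to 19922605, minus strand). It had 87.0 normalized counts with the control shRNA, 183 in the sh1-labelled library and 32.7 in the sh2-labelled library. The first was 2.11 times the control and the second 37.6% of it, so the control lay between them. The mean log2 difference was -0.16 (SE 1.11, limma adjusted p = 0.98), the widest error of the 7 genes. The 2 GIV-labelled libraries differed from each other 5.60-fold.

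Acp5 encodes tartrate-resistant acid phosphatase (TRAP), the enzyme used to stain osteoclasts (ENSMUSG00000001348.15, chromosome 9, 22126727 to 22135711, minus strand). It had 450.4 normalized counts with the control shRNA, 549 in the sh1-labelled library and 197 in the sh2-labelled library. Here the sh2-labelled library stood apart, at 43.6% of the control, while the sh1-labelled library was 1.22 times the control. The mean log2 difference was -0.45 (SE 0.67, limma adjusted p = 0.90).

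Ctsk encodes cathepsin K, the protease that digests bone collagen (ENSMUSG00000028111.4, chromosome 3, 95499256 to 95509362, plus strand). It had 240.1 normalized counts with the control shRNA, 159 in the sh1-labelled library and 191 in the sh2-labelled library. Both lay below the control, the reverse of Acp5 in the sh1-labelled library. The mean log2 difference was -0.46 (SE 0.28, limma adjusted p = 0.79).

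Itgb3 and Calcr belong to later osteoclast stages. Itgb3, the integrin beta 3 chain of the vitronectin receptor (ENSMUSG00000020689.4, chromosome 11, 104608000 to 104670476), had 0.935 normalized counts with the control shRNA, 1.11 in the sh1-labelled library and 0.961 in the sh2-labelled library, about 1 read in each. Its partner chain Itgav was present, with 11293 normalized counts with the control shRNA, 15066 in the sh1-labelled library and 10209 in the sh2-labelled library, as were the chains Itgb1, Itgb2 and Itgb5. Calcr, the calcitonin receptor of mature osteoclasts (ENSMUSG00000023964.15, chromosome 6, 3685680 to 3764714), was listed at 0 in all 3 libraries. In bulk RNA, fewer cells that express a gene and less of its RNA per cell cannot be told apart.

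Promoter sequence is shown for the tested genes with an entry in RefSeq (GRCm38.p6). Any link between these sequences and the differences between libraries was not tested. Entries were found for 5 of the 10 genes, Acp5, Calcr, Ctsk, Oscar and Tnfrsf11a. Each sequence is the 250 bases before a start site, 5′ to 3′ on the gene's strand. For Acp5 the most downstream of 3 start sites is shown. Capitals mark matches on either strand to GGAAA (core of NFAT sites), GAGGAA (core of PU.1 sites), CACATG (MITF box) or TGANTCA (AP-1).
Acp5, chr9:22130599-22130848, minus strand: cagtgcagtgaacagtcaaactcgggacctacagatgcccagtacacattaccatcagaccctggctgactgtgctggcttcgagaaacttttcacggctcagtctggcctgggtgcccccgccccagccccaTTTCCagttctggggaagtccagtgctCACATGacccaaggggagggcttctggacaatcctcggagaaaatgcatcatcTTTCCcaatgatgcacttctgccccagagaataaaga
Ctsk, chr3:95498960-95499209, plus strand: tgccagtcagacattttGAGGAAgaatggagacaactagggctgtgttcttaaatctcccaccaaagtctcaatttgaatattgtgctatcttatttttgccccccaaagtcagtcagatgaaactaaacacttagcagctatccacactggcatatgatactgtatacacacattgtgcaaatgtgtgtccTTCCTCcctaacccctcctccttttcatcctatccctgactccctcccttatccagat
Tnfrsf11a, chr1:105780473-105780722, plus strand: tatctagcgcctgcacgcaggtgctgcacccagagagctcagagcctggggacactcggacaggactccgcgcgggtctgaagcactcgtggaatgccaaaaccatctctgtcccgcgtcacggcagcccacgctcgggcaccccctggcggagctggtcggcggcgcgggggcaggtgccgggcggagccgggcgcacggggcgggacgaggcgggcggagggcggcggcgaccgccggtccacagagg
The Acp5 window held 2 matches to the NFAT core, 117 and 37 bases before the start, and 1 to the MITF box, 90 bases before it. The Ctsk window held 2 matches to the PU.1 core, at 233 and 58 bases, and the Tnfrsf11a window held no match to any of the 4 motifs. The other Acp5 windows held 1 NFAT core match each. Such matches are common: among 32851 windows of the same length, 55.6% held the NFAT core, 23.3% the PU.1 core, 12.3% the MITF box and 6.75% the AP-1 motif. A match describes letters only, and binding was not measured. No 2 of the marked matches in these 3 windows overlap.

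Set side by side, 3 of the 7 tested genes (Ocstamp, Ctsk and Tnfrsf11a) were lower than the control in both GIV-labelled libraries. Among all features tested 35.2% were. Of the 9 macrophage markers 5 were also lower than the control in both, and their part in these values was not tested. None of the 7 was higher in both, against 34.9% of all features. Higher in the sh1-labelled library and lower in the sh2-labelled library were 4 of the 7, against 15.2% of all features. The genes were chosen on the gap between these libraries, which bears on each of these counts of the 7 by direction. Nothing is read from any of them. By size, Dcstamp and Atp6v0d2 were at least 2-fold higher than the control in the sh1-labelled library, where 3.98% of all features were, and 0 of the 7 were at least 2-fold lower, where 2.94% were. In the sh2-labelled library, Acp5 and Atp6v0d2 were at least 2-fold lower, where 2.54% were, and 0 of the 7 were at least 2-fold higher, where 4.78% were. The choice of genes on the gap between the GIV-labelled libraries bears on these counts by size too, and nothing is read from them. These comparisons share the single control library, so their values are not independent.

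**Figure D2:**
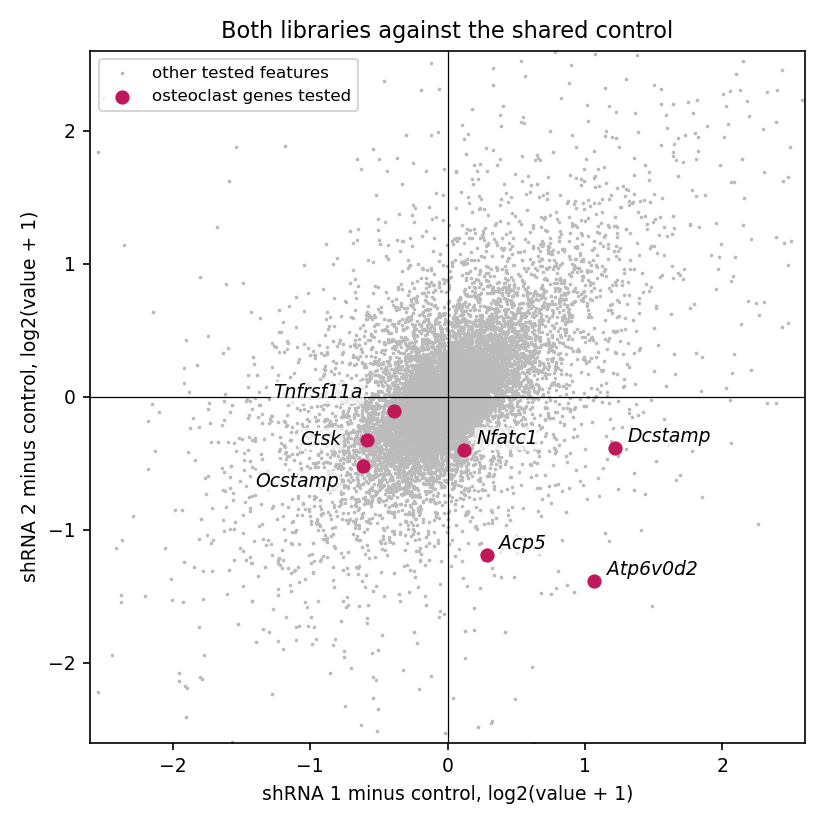
Difference of each GIV-labelled library from the shared control, log2(value + 1), with shRNA 1 on the horizontal and shRNA 2 on the vertical axis. Grey points are the other tested features, of which 265 lie outside the range drawn, and the 7 larger points are the osteoclast genes. Dcstamp, Acp5, Atp6v0d2 and Nfatc1 lie in the lower right and Ocstamp, Ctsk and Tnfrsf11a lower left.

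Between the libraries labelled GIV-depleted, the contrast for which the genes were chosen, 3 of 7 (Dcstamp, Acp5 and Atp6v0d2) were at least 2-fold lower in the sh2-labelled library. Among all features 2.59% were. None of the 7 was at least 2-fold higher, where 3.65% of all features were, and nothing is read from these shares. The log2 differences, shRNA 2 minus shRNA 1, were -2.45 for Atp6v0d2, -1.60 for Dcstamp, -1.48 for Acp5 and -0.52 for Nfatc1. They were 0.29 for Tnfrsf11a, 0.26 for Ctsk and 0.09 for Ocstamp. Of all features, 0.346% had a lower value of this difference than Atp6v0d2, 0.915% than Dcstamp, 1.16% than Acp5 and 7.75% than Nfatc1. Nfatc1 was thus the least apart of these 4, and Ocstamp, Ctsk and Tnfrsf11a lay slightly on the other side. The median of the 7 was 0.12 for shRNA 1 and -0.40 for shRNA 2 against the control, where the medians of all features were 0.00 and 0.00.

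Levels of different genes were compared per kilobase of the longest coding transcript. In the control the order was Nfatc1 (479.9 normalized counts per kilobase), Tnfrsf11a (404), Dcstamp (359.6), Acp5 (311), Ctsk (159), Ocstamp (77.2) and Atp6v0d2 (34.3), followed by Oscar (2.56), Itgb3 (0.162) and Calcr at 0. The ranges of neighbours over the 3 libraries overlapped from Nfatc1 down to Ctsk, and again for Ocstamp with Atp6v0d2 and for Oscar with Itgb3. Ctsk lay above Ocstamp, and Atp6v0d2 above Oscar, without overlap. In the sh1-labelled library Dcstamp came first, with 837 per kilobase, and in the sh2-labelled library Tnfrsf11a did, with 376.

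Among 10383 protein-coding genes averaging 50 or more normalized counts, Zfp462 and Pik3r2 were among the 3 whose pair of differences lay nearest to that of Dcstamp. Pik3r2, a regulatory subunit of PI3-kinase, had 497 normalized counts with the control shRNA, 1145 in the sh1-labelled library and 422 in the sh2-labelled library, at a Euclidean distance of 0.15 on the log2 scale. Nearest to Acp5 were Rgs2, Pla2g16 and Dmwd. Rgs2, a regulator of G-protein signalling, had 5839 in the control, 7012 in the sh1-labelled library and 2541 in the sh2-labelled library, at a distance of 0.02. Each likeness rests on 3 libraries, and none was computed for Itgb3 because it had about 1 read in each.

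Other genes of the osteoclast pathway were taken from 7 lists of 149 different genes, of which 139 were tested. In limma 0 of the 139 passed, the lowest adjusted p being 0.16. At an unadjusted p under 0.05 there were 16, or 11.5%, against 6.94% of all features. Lower than the control in both GIV-labelled libraries were 68, or 48.9%, against 35.2% of all features, and higher in both were 31, or 22.3%, against 34.9%. Higher in the sh1-labelled library and lower in the sh2-labelled library, the pattern of Dcstamp, were 26, or 18.7%, against 15.2%. The lists were written with earlier results of these data known and had no set test, so nothing is read from these shares.

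**Figure D3:**
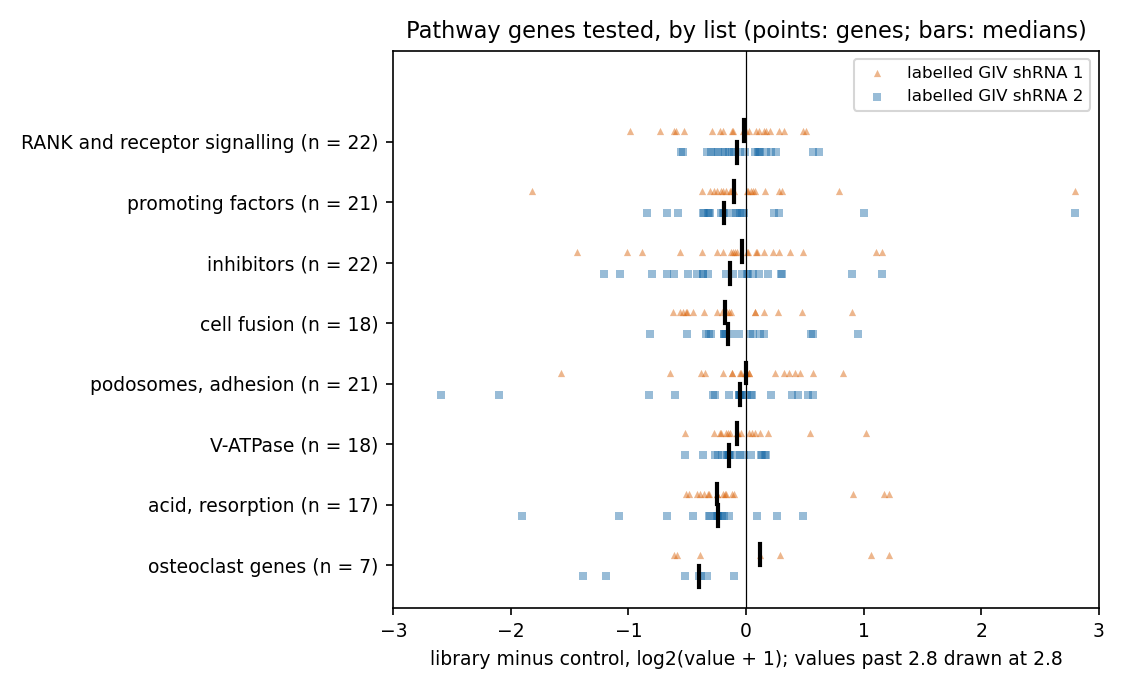
Difference of each GIV-labelled library from the control, log2(value + 1), for the tested genes of 7 pathway lists and for the 7 tested osteoclast genes. Points are genes and black bars are medians. List medians lie between -0.24 and 0.00, whereas the medians of the 7 osteoclast genes lie on opposite sides of 0, at 0.12 and -0.40.

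Receptors and signalling around RANK had 7 of 22 tested genes above the control in both libraries and 10 below it in both, none called, with a median log2 difference of -0.08 beside 0.00 for all features. The largest differences were those of Csf1r (the M-CSF receptor, needed for precursor survival; -0.63, SE 0.33), Fcgr1 (an Fc receptor; -0.58, SE 0.13) and Trem2 (an ITAM-coupled receptor). Trem2 had 2194 normalized counts with the control shRNA, 1433 in the sh1-labelled library and 1515 in the sh2-labelled library. The kinase Syk, which acts below these receptors, had 1547, 1939 and 2377 normalized counts in the same order, higher in both. The adaptor Traf6, which couples RANK to its signalling, had 2394 in the control, 2758 in the sh1-labelled library and 2780.4 in the sh2-labelled library, and was named here after its values were seen.

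Transcription factors that promote osteoclast genes were lower in both for 10 of 21 and higher in both for 3, none called, with a median of -0.17. Jund, a subunit of AP-1, had 2273 normalized counts with the control shRNA, 1963 in the sh1-labelled library and 1270.3 in the sh2-labelled library. Tfec, a relative of MITF, went the other way from Acp5, with 144 in the control, 40.2 in the sh1-labelled library and 171 in the sh2-labelled library. Prdm1, which encodes the repressor Blimp-1, had 16.2, 28.7 and 33.6 in that order. Batf, an AP-1 family member, had the largest log2 difference, 7.84 (SE 0.48, limma adjusted p = 0.16). It had 0.932 normalized counts with the control shRNA, about 1 read, 339 in the sh1-labelled library and 578 in the sh2-labelled library. Mitf itself, named after its values were seen, had 4142 in the control, 4194 in the sh1-labelled library and 3233 in the sh2-labelled library, the same order as Nfatc1.

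Inhibitors of osteoclast formation included genes with sizeable differences in both directions: 9 of 22 lay below the control in both libraries and 7 above it in both, none called, with a median of -0.11. Id1, an inhibitor of helix-loop-helix factors, had 2694 normalized counts with the control shRNA, 1455 in the sh1-labelled library and 1282 in the sh2-labelled library. Its relative Id2 lay on the other side, with 293 in the control, 655 in the sh1-labelled library and 549.9 in the sh2-labelled library. Ifnb1, which encodes interferon beta, a feedback inhibitor in osteoclast precursors, had a log2 difference of 1.13 (SE 0.16, limma adjusted p = 0.28). The genes Dcaf7 and Rgs10, counted in that list, are not established inhibitors.

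Cell fusion genes other than the members were lower in both libraries for 8 of 18 and higher in both for 3, none called, with a median of -0.14. Adam8, a membrane protease linked to osteoclast fusion, had 25518 normalized counts with the control shRNA, 17646 in the sh1-labelled library and 18043 in the sh2-labelled library. Sh3pxd2a, which encodes the podosome scaffold Tks5, had 151 in the control, 282 in the sh1-labelled library and 223 in the sh2-labelled library. The tetraspanins Tspan13 and Cd81 differed from each other, with 60.9, 44.2 and 34.2 for Tspan13 and 262, 236 and 508 for Cd81 in the order control, shRNA 1 and shRNA 2. Cd81 was highest in the sh2-labelled library, where Dcstamp was lowest.

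Podosome and adhesion genes were lower in both libraries for 8 of 21 and higher in both for 5, none called, with a median of -0.01. Cttn (cortactin, an actin regulator of podosomes) had 43.9 normalized counts with the control shRNA, 14.1 in the sh1-labelled library and 6.42 in the sh2-labelled library. Gsn (gelsolin, which severs actin filaments) had 4838 in the control, 4454 in the sh1-labelled library and 1127 in the sh2-labelled library. Vav3, an exchange factor for Rac, and Cbl, an adaptor and ubiquitin ligase, were higher in both, with log2 differences of 0.63 (SE 0.23) and 0.55 (SE 0.12).

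The rest of the proton pump was set beside Atp6v0d2. The 18 other tested proton pump genes were lower in both libraries for 11 and higher in both for 5, none called, with a median of -0.11. Their log2 differences ran from -0.52 to 1.02 in the sh1-labelled library and from -0.52 to 0.17 in the sh2-labelled library, where Atp6v0d2 was at 1.07 and -1.38. The d1 subunit Atp6v0d1, which is expressed in most cells, had 5113 normalized counts with the control shRNA, 4232 in the sh1-labelled library and 4625 in the sh2-labelled library. Per kilobase, Atp6v0d2 was at 1.09% of Atp6v0d1 in the control, 2.78% in the sh1-labelled library and 0.454% in the sh2-labelled library.

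Among the a subunits, Atp6v0a1 had 1835 normalized counts with the control shRNA, 3725 in the sh1-labelled library and 2063 in the sh2-labelled library. Atp6v0a2 had 4509.5, 6572 and 4655 in that order, so both were highest in the sh1-labelled library. Tcirg1, which encodes the a3 subunit that places the pump at the bone-facing membrane, was lower in both, with 42239 in the control, 29411 in the sh1-labelled library and 29518 in the sh2-labelled library. Its log2 difference was -0.52 (SE 0.13, limma adjusted p = 0.57). Atp6v1b2 had a log2 difference of -0.27 (SE 0.15).

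**Figure D4:**
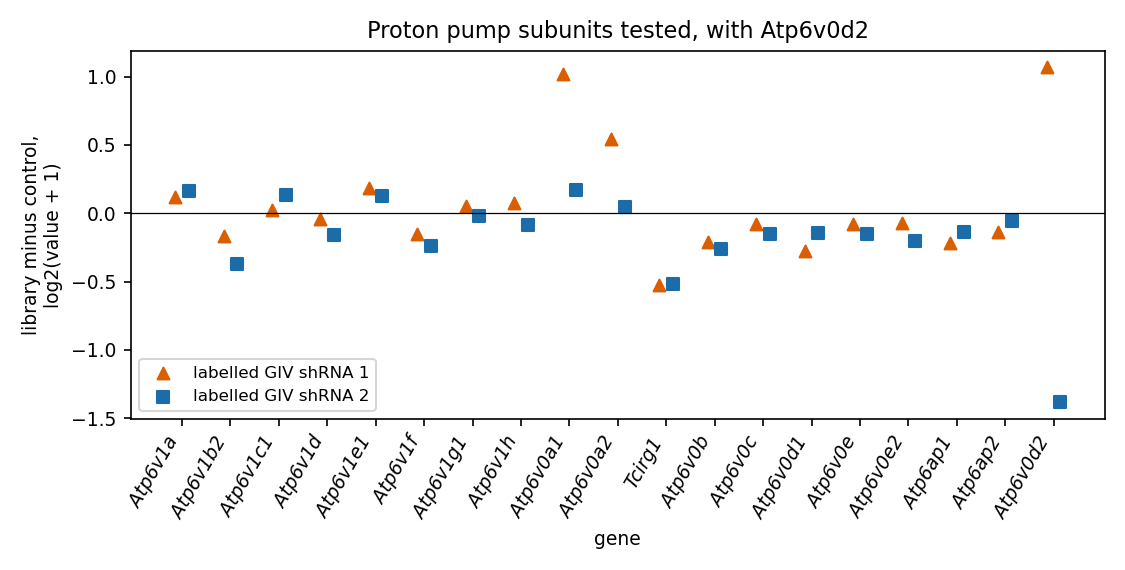
Difference of each GIV-labelled library from the control, log2(value + 1), for the 18 tested proton pump genes of the list and for Atp6v0d2 at the right, with 1 point per library. Atp6v0d2 is at 1.07 in the sh1-labelled library and at -1.38 in the sh2-labelled library, and Tcirg1 lies near -0.52 in both.

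Genes of acid secretion and matrix resorption were lower in both libraries for 12 of 17 and higher in both for 1, none called, with a median of -0.22, the lowest of the 7 lists. Slc9b2, a sodium and proton exchanger of osteoclasts, had 71.7 normalized counts with the control shRNA, 50.1 in the sh1-labelled library and 18.4 in the sh2-labelled library. Mmp12, the macrophage elastase, was the gene higher in both, with 21.9, 52.3 and 31.1 in that order. The cathepsins Ctsl and Ctsd had log2 differences of -0.53 (SE 0.18) and -0.47 (SE 0.14), beside -0.46 (SE 0.28) for Ctsk. The macrophage markers were lower in both libraries for 5 of 9, and their part in these values was not tested.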

How the data were processed

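Stranded mRNA libraries of LPS-treated RAW 264.7 cells were deposited by the authors as 1 table of normalized counts, treated as a non-negative signal. The submitters' processing notes name Salmon, DESeq, DESeq2 and the build GRCm38; versions, settings, size factors and the annotation release are not given in the sources used here. Only 82.3% to 83.9% of values under 20 lay within 0.1 of a whole multiple of the value of 1 read, so whole reads were not recovered and no count model was fitted. Counting error was not estimated and weighs most on low values: Atp6v0d2 in the sh2-labelled library rests on about 34 reads.

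Identifiers were matched without version to gene symbols (54097 matched, 234 did not) and to GENCODE M21 for positions and lengths. Features averaging at least 10 normalized counts, 13877 in number, were fitted on the log2(value + 1) scale with limma 3.58.1 in R 4.3.3 (lmFit, eBayes with trend), 2 libraries labelled GIV-depleted against 1 control, two-sided, with Benjamini-Hochberg adjustment over all features. Changes of low genes are understated on the log2 scale with a pseudocount. There is 1 residual degree of freedom per gene, and the control, being alone, is taken to vary like the others. No label states separate cultures, so the p-values reflect spread between these libraries, which may be technical. The GIV-labelled libraries also carry different shRNAs, with Ccdc88a at 1734 and 2561 normalized counts beside 2580.4 in the control. The fit treats them as replicates of 1 condition. Differences between the shRNAs thus enter that spread and cannot be told apart from technical ones. Single libraries were compared by a rule of at least 2-fold, with no test.

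The 10 genes and all lists were chosen with earlier results of these data known. Named besides the members are Ccdc88a, up to 4 tested genes per list, those with the largest mean difference, and the 3 genes nearest to Dcstamp and to Acp5; other genes were named after their values were seen. Alternatives changed the pseudocount, filter, scaling, trend, fold rule and libraries used. Akp5, counted among the 149 list genes, was not matched. A few genes that these rules select are left out of the text.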

Additional observations from a re-analysis of the deposited data

How the results depend on the processing

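The 7 tested genes kept the direction of their mean difference under 10 alternative settings (pseudocount, filter, scaling, a length and GC trend removed, no variance trend). Settings that changed only the filter or the variance trend cannot alter a mean difference. In limma 0 of the 7 passed under any setting. The choice of genes on the gap between the GIV-labelled libraries bears on that count, and nothing is read from it. Leaving out a GIV-labelled library, which leaves no test, gave -0.39 and 1.22 for Dcstamp, -1.19 and 0.29 for Acp5, -0.40 and 0.12 for Nfatc1 and -1.38 and 1.07 for Atp6v0d2, so the direction of these 4 means is set by which library is used. The 2 genes at least 2-fold higher in the sh1-labelled library became 1 with a pseudocount of 10 and 1 with the length and GC trend removed, and at 1.5-fold the count of lower genes there went from 0 to 2. With that trend removed the list medians moved from -0.08 to -0.01 for RANK signalling, from -0.17 to -0.09 for promoting factors and from -0.11 to -0.04 for inhibitors; the cause was not tested. The podosome median of -0.01 became 0.00 with equal totals. Over all features the 0 calls became 1 in 5 of the 10 settings. No paired analysis was possible because the control has 1 library and the sample titles name no pairing.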

Other observations

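By the 2-fold rule, 6 of the 139 tested pathway genes (4.32%, against 2.59% of all features) were lower in the sh2-labelled library than in the sh1-labelled library, and 3 (2.16%, against 3.65%) were higher. These genes were named after their values were seen, there is no test, and nothing is read from these shares. Besides Gsn, Cttn and Slc9b2, given above, the lower ones were Mmp9, Src and Car2. Cttn passed the rule only just, at a log2 difference of -1.03, with 14.1 in the sh1-labelled library and 6.42 in the sh2-labelled library. Slc9b2 was also low, with 50.1 and 18.4 in that order. Among the higher ones, Tfec had 40.2 in the sh1-labelled library. Mmp9, a gelatinase abundant in osteoclasts, had 4632 normalized counts with the control shRNA, 10440.3 in the sh1-labelled library and 2188 in the sh2-labelled library, the order of Dcstamp. Src, the kinase that osteoclasts need for their ruffled border, had 2487 in the control, 3211 in the sh1-labelled library and 1402 in the sh2-labelled library, again with the control between the others. Car2, the carbonic anhydrase that supplies protons for acid secretion, had 14918, 28099 and 13456 in that order, so it was high in the sh1-labelled library. The 3 higher genes were Tfec and Cd81, given above, and Itgb5, with 632 in the control, 404 in the sh1-labelled library and 826 in the sh2-labelled library.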
